A study of Caenorhabditis elegans with 6 samples.

Results

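The genes described here are 34 genes of the small RNA pathways of *Caenorhabditis elegans*, namely 13 Argonautes and the proteins that make, amplify or use their small RNA guides. They were chosen by symbol from a list of 35 names, and each symbol had to equal the gene name in the deposited tables, which hold 47157 gene IDs. The symbol *znfx-1* was absent from the tables and is taken up separately. RNA was sequenced from whole young adult *blmp-1(s71)* mutants and from whole young adults of the wild-type strain N2, in 3 libraries each. Animals of both groups came from synchronized larvae raised on agar plates, and the series calls the libraries biological replicates. The labels do not say what the s71 allele changes in *blmp-1*, a gene for a zinc finger transcription factor, or which other alleles the strain carries. The comparison is of transcript levels with and without that allele.

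Argonautes are proteins that bind a short RNA and use it as a guide to find matching transcripts. In *C. elegans* the microRNA Argonautes act in most tissues, whereas the germline holds a Piwi Argonaute with its piRNAs, and 2 kinds of primary Argonaute that bind 26G RNAs, 1 in oocytes and embryos and 1 in developing sperm. These primary Argonautes, and those loaded with pieces of double-stranded RNA, mark transcripts on which RNA-dependent RNA polymerases copy a far larger set of secondary 22G RNAs in germ granules beside the nucleus. Secondary Argonautes load the 22G RNAs and silence transposons and foreign genes, pass silencing to the next generation or protect genes that the germline expresses.

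The libraries held 6586154 to 13711720 reads on genes in *blmp-1(s71)* and 5255125 to 15218178 in wild type. Levels are CPM, the reads of a gene relative to the library's total, scaled between libraries by the trimmed mean of M-values (TMM). Where TPM are named, levels are also corrected for gene length. A gene was called where limma, fitted over 13756 genes, gave a Benjamini-Hochberg adjusted p under 0.05. *blmp-1* itself was at 14.6 ± 6.87 CPM in *blmp-1(s71)* and 12.2 ± 2.20 CPM in wild type (SD, n = 3 each). Its log2 fold change was 0.16 (SE 0.32) with a limma adjusted p of 0.697, so the level does not check the labels. Of all genes tested, 8.84% were called higher and 13.4% lower in *blmp-1(s71)*, and the median log2 fold change was 0.07.

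Small RNA pathway transcripts were mostly lower in *blmp-1(s71)*, and the sperm Argonaute pair *alg-3* and *alg-4* went the other way. All 34 genes passed the filter on low values, with between 99 and 11770 reads in each library. By limma, 14 genes fell (41.2%, against 13.4% of all genes tested), 2 rose (5.88%, against 8.84%) and 18 were not called. The median log2 fold change was −0.61, with a range of −1.27 to 1.11. The fold change was below 0 for 31 genes, where 46.9% of all genes tested were below 0, and above 0 for *alg-1*, *alg-3* and *alg-4*. All *blmp-1(s71)* libraries lay below all wild-type libraries for 26 of the 34 genes, which held for 26% of all genes tested, and above them for 2, which held for 22.6% of all genes tested. The groups overlapped for the remaining 6. The number called lower depended on the scaling and the tool, whereas *alg-3* and *alg-4* were called higher in each of the next 4 fits. edgeR on recovered reads called 2 higher and 9 lower (10% and 9.49% of all genes tested), and DESeq2 called 2 and 15 (11.8% and 15.4%). limma called 2 higher and 1 lower with library size alone (16.6% and 1.02% of all genes) and 2 higher and 0 lower with deposited TPM (13.9% and 1.49%).

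**Figure D1:**
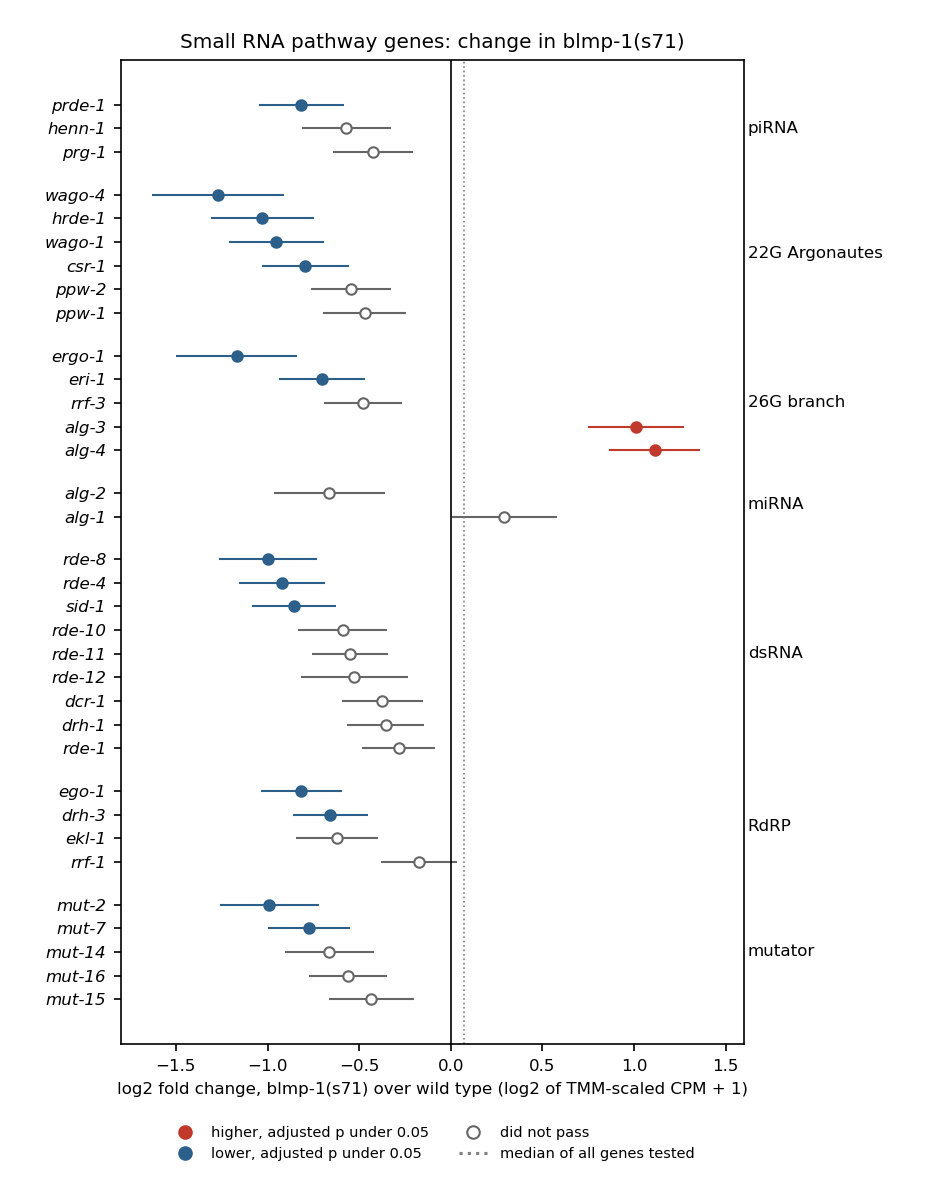
Log2 fold change of each of the 34 genes, *blmp-1(s71)* over wild type, on the log2(TMM-scaled CPM + 1) scale, with bars of 1 SE and genes grouped by role. Filled points are the 14 genes called lower and the 2 called higher by limma, and the dotted line is the median of all genes tested. *alg-3* and *alg-4* stand at 1.01 and 1.11, and the called genes that fell lie between −0.66 and −1.27.

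The calls sit close to the threshold, and leaving out any library other than *blmp-1(s71)* library 3 removed all of the lower ones. Adjusted p-values of the 16 called genes ran from 0.0337 to 0.0497 in limma. Each of the 14 genes that fell was called in 1 of the 6 fits that leave out a library, the one without *blmp-1(s71)* library 3, in which 20 of the 34 genes and 21.8% of all genes tested were called lower. *alg-3* was also called only in that fit of the 6, and *alg-4* in that fit and in the one without wild-type library 3. All 16 kept their sign in the 6 fits.

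Secondary Argonautes of the germline were lower in *blmp-1(s71)* throughout, with 4 of 6 called (66.7%, against 13.4% of all genes tested). *wago-1*, a germ granule Argonaute that silences transposons and foreign sequence, had 374, 293 and 566 CPM in *blmp-1(s71)* libraries 1 to 3, against 769, 669 and 876 CPM in wild-type libraries 1 to 3. *hrde-1* (chromosome III, 4172337 to 4176159 in WBcel235), which carries silencing into the nucleus and across generations, had 222, 173 and 368 CPM in *blmp-1(s71)* and 505, 408 and 586 CPM in wild type. *csr-1* (chromosome IV, 7957267 to 7962157), which binds guides against transcripts the germline expresses, had 259.8, 226 and 357 CPM in *blmp-1(s71)*, against 428, 445 and 576 CPM in wild type. In all 3 genes, *blmp-1(s71)* library 3 was the highest of the mutant libraries and library 2 the lowest, and the groups did not overlap. The log2 fold change was −0.95 (SE 0.26, limma adjusted p = 0.0346) for *wago-1*, −1.03 (SE 0.28, adjusted p = 0.0346) for *hrde-1* and −0.79 (SE 0.24, adjusted p = 0.0391) for *csr-1*. By edgeR on recovered reads *wago-1* was called (adjusted p = 0.0492), and *hrde-1* (0.0515) and *csr-1* (0.0522) were not. Exons of *csr-1* overlap those of *frpr-10* on the same strand over 438 bases, and *frpr-10* had at most 9 reads in any library.

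*wago-4* (chromosome II, 12919551 to 12923377), which acts in the inheritance of RNAi, showed the largest fall of the 34 genes. It had 91.8, 49.5 and 123 CPM in *blmp-1(s71)* libraries 1 to 3 and 293, 143 and 191 CPM in wild-type libraries 1 to 3. Wild-type library 1 stood well above its group, and the groups did not overlap. The log2 fold change was −1.27 (SE 0.36, limma adjusted p = 0.0393). *wago-4* was not called by edgeR (adjusted p = 0.0563) or by limma with upper-quartile scaling (adjusted p = 0.0752). DESeq2 called it (adjusted p = 0.0171). With library size alone it was the 1 gene of the 34 that limma called lower (adjusted p = 0.0427). With 1 library left out, the smallest fall was −0.90 in limma and −0.77 in edgeR, each without wild-type library 1. *ppw-1*, needed for RNAi in the germline, and *ppw-2*, a further secondary Argonaute, had log2 fold changes of −0.47 (adjusted p = 0.125 in limma) and −0.55 (adjusted p = 0.0785). Neither was called, and their mutant libraries all lay below the wild-type ones, as in 26% of all genes tested.

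**Figure D2:**
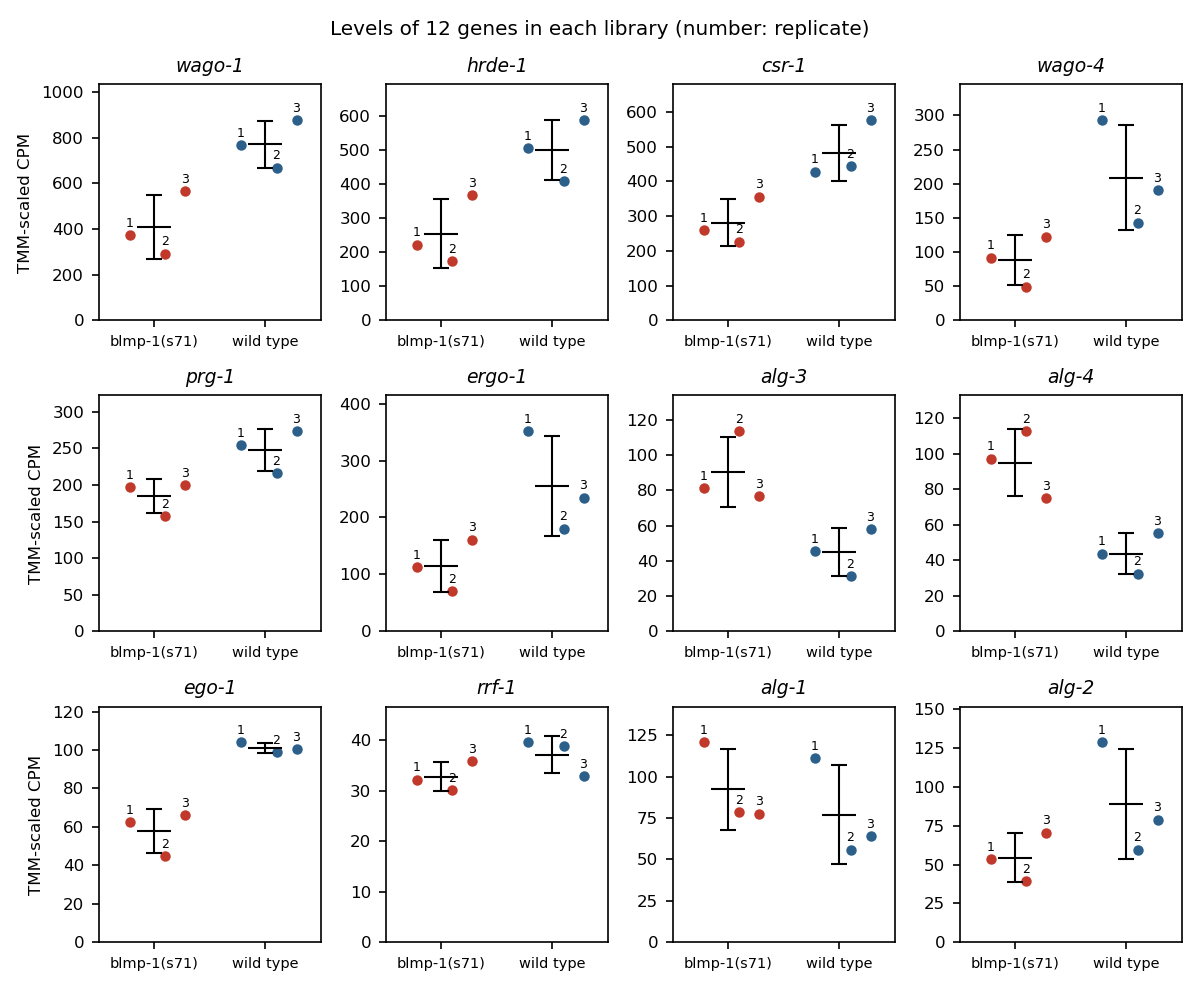
Level of 12 of the genes in each library, as TMM-scaled CPM on axes that start at 0, with *blmp-1(s71)* left of wild type. Points are libraries with their replicate number, and bars are the mean and SD over 3 libraries. *blmp-1(s71)* library 2 is the lowest of its group for *wago-1*, *hrde-1*, *csr-1*, *wago-4* and *ergo-1* and the highest for *alg-3* and *alg-4*.

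By limma, the Argonautes of the 26G RNAs moved in opposite directions, and the fall was called by fewer tools than the rises. *ergo-1* (chromosome V, 1008803 to 1018352), the Argonaute of 26G RNAs in oocytes and embryos, had 113, 70.7 and 161 CPM in *blmp-1(s71)* libraries 1 to 3, against 351, 180.4 and 234.6 CPM in wild-type libraries 1 to 3. *alg-3* (chromosome IV, 11704246 to 11708264), an Argonaute of 26G RNAs in developing sperm, had 81.3, 113 and 76.6 CPM in *blmp-1(s71)* and 45.6, 31.3 and 58.2 CPM in wild type. Its close relative *alg-4* (chromosome III, 9887209 to 9891424) had 97.3, 112.5 and 75.1 CPM in *blmp-1(s71)*, against 43.8, 32.4 and 55.2 CPM in wild type. In none of the 3 genes did the groups overlap, and mutant library 2 was farthest from wild type in each. *ergo-1* fell by 1.17 on the log2 scale (SE 0.33, limma adjusted p = 0.0368), with adjusted p-values of 0.0201 in DESeq2, 0.0554 in edgeR and 0.0735 in limma with upper-quartile scaling. *alg-3* rose by 1.01 on the log2 scale (SE 0.26, adjusted p = 0.0341), as did *alg-4*, with 1.11 (SE 0.25, adjusted p = 0.0337). Both rises were also called by edgeR (adjusted p = 0.0444 and 0.0407) and by DESeq2 (adjusted p = 0.0151 and 0.00561).

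The partners that make 26G RNAs were lower, and 1 of 2 was called. *eri-1*, an exonuclease of the complex that produces them, had 19.1, 21.5 and 29.7 CPM in *blmp-1(s71)* libraries 1 to 3 and 33.9, 44.1 and 37.1 CPM in wild-type libraries 1 to 3, with no overlap. Its log2 fold change was −0.70 (SE 0.24, limma adjusted p = 0.0497), and it was not called by edgeR (adjusted p = 0.0540). *rrf-3*, the RNA-dependent RNA polymerase of the same complex, had a log2 fold change of −0.48 (SE 0.21, adjusted p = 0.102 in limma). Its mutant libraries all lay below the wild-type ones, as in 26% of all genes tested.

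In the piRNA branch *prde-1* fell, while the Piwi Argonaute itself was not called. *prde-1* (chromosome V, 15538244 to 15547086), needed to make piRNA precursors, had 13.9, 14.1 and 19.95 CPM in *blmp-1(s71)* libraries 1 to 3, against 26.45, 30.8 and 28.5 CPM in wild-type libraries 1 to 3. The mutant libraries lay below the wild-type ones, and the log2 fold change was −0.82 (SE 0.23, limma adjusted p = 0.0357). *prg-1*, the Piwi Argonaute that binds piRNAs, had 197, 158 and 200.2 CPM in *blmp-1(s71)* and 255, 217 and 273 CPM in wild type. For *prg-1* all mutant libraries lay below all wild-type ones, as in 26% of all genes tested. The log2 fold change of *prg-1*, −0.42 (SE 0.22), had an adjusted p of 0.143 in limma. *henn-1*, the methyltransferase that protects the ends of piRNAs and some 26G RNAs, had a log2 fold change of −0.57 (adjusted p = 0.0930), with overlapping groups.

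The microRNA Argonautes were not called and their groups overlapped. *alg-1* had 120.5, 78.4 and 77.7 CPM in *blmp-1(s71)* libraries 1 to 3, against 111, 55.8 and 63.9 CPM in wild-type libraries 1 to 3, with a log2 fold change of 0.29 (SE 0.29, adjusted p = 0.429 in limma). *alg-2* had 53.4, 39.3 and 70.5 CPM in *blmp-1(s71)* and 128, 59.6 and 78.7 CPM in wild type, with a log2 fold change of −0.66 (SE 0.30, adjusted p = 0.112). Library 1 was the highest of its group for *alg-1* in both groups and for *alg-2* in wild type.

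Among the 9 genes for entry of double-stranded RNA, dicing and primary RNAi, 3 fell (33.3%, against 13.4% of all genes tested). *rde-4* (chromosome III, 10217302 to 10218646), the double-stranded RNA binding partner of Dicer, had 40.9, 31.9 and 54.8 CPM in *blmp-1(s71)* libraries 1 to 3 and 75.1, 81.2 and 82.6 CPM in wild-type libraries 1 to 3. *sid-1* (chromosome V, 5119970 to 5126916), the channel that takes double-stranded RNA into cells, had 24.2, 26.2 and 37.4 CPM in *blmp-1(s71)*, against 47.3, 55.4 and 56.2 CPM in wild type. *rde-8* (chromosome IV, 7101379 to 7103261), an endoribonuclease that cuts target transcripts, had 17.4, 18.85 and 29.6 CPM in *blmp-1(s71)*, against 34.2, 55.5 and 43.75 CPM in wild type. All 3 had their highest mutant value in library 3 and no overlap between the groups. The log2 fold change was −0.92 (SE 0.23) for *rde-4*, −0.86 (SE 0.23) for *sid-1* and −0.997 (SE 0.27) for *rde-8*, with limma adjusted p-values of 0.0337, 0.0346 and 0.0344.

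The other genes of double-stranded RNA processing were not called. *dcr-1*, which encodes Dicer, had 106.0, 75.1 and 92.5 CPM in *blmp-1(s71)* and 133, 109.8 and 110.6 CPM in wild type, with a log2 fold change of −0.37 (adjusted p = 0.197 in limma). *rde-1*, the Argonaute loaded by Dicer in RNAi, had a log2 fold change of −0.28 (adjusted p = 0.272). *drh-1*, a Dicer-related helicase of the antiviral response, stood at −0.36 (adjusted p = 0.202). *rde-10* and *rde-11*, partners in a complex for amplification, stood at −0.59 (adjusted p = 0.0845) and −0.55 (adjusted p = 0.0647). In these 5 genes all mutant libraries lay below all wild-type libraries, as in 26% of all genes tested. *rde-12*, a helicase and by TPM the most abundant gene of this set, had 211, 146.5 and 185 CPM in *blmp-1(s71)*, against 404, 180.1 and 236 CPM in wild type. Its groups overlapped, and the log2 fold change of −0.53 (SE 0.29) had an adjusted p of 0.173.

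The germline RNA-dependent RNA polymerase *ego-1* fell, and its neighbour *rrf-1* was not called. The 2 polymerase genes lie 563 bases apart on the minus strand of chromosome I. *ego-1* had 62.6, 44.8 and 66.1 CPM in *blmp-1(s71)* libraries 1 to 3, against 104, 99.0 and 100.4 CPM in wild-type libraries 1 to 3, and fell by 0.815 on the log2 scale (SE 0.22, limma adjusted p = 0.0346). *rrf-1*, the polymerase of somatic RNAi, had 32.2, 30.2 and 35.9 CPM in *blmp-1(s71)* and 39.6, 38.9 and 32.9 CPM in wild type. Its groups overlapped, and the log2 fold change was −0.17 (SE 0.21, adjusted p = 0.521). *drh-3*, the helicase of the polymerase module, had 54.7, 51.5 and 64.4 CPM in *blmp-1(s71)* and 83.8, 91.1 and 95.0 CPM in wild type and fell by 0.66 on the log2 scale (SE 0.21, adjusted p = 0.0425). *ekl-1*, its Tudor domain partner, had 42.2, 43.5 and 54.15 CPM in *blmp-1(s71)* and 57.3, 79.1 and 81.6 CPM in wild type. The log2 fold change of *ekl-1* was −0.62 (SE 0.23), with an adjusted p of 0.0592 in limma and 0.0445 in DESeq2.

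Mutator proteins build the granule foci in which 22G RNAs are made, and 2 of 5 fell (40%, against 13.4% of all genes tested). *mut-2*, which adds poly(UG) tails to target transcripts, had 19.7, 17.8 and 33.3 CPM in *blmp-1(s71)* libraries 1 to 3 and 37.45, 56.7 and 46.2 CPM in wild-type libraries 1 to 3. *mut-7* (chromosome III, 9539031 to 9542380), an exonuclease, had 40.2, 48.5 and 61.55 CPM in *blmp-1(s71)*, against 79.3, 82.8 and 93.7 CPM in wild type. Neither gene's groups overlapped, with log2 fold changes of −0.99 (SE 0.27, limma adjusted p = 0.0346) for *mut-2* and −0.77 (SE 0.22, adjusted p = 0.0363) for *mut-7*. Exons of *mut-2* overlap those of *bli-4* on the opposite strand over 67 bases, 4.30% of the exonic length of *mut-2*. *bli-4* had 1077 to 3653 reads in each library. Whether reads were assigned by strand is not given in the sources used here, and the effect of the overlap was not tested. *mut-16*, the scaffold of the foci, had 59.2, 57.9 and 74.3 CPM in *blmp-1(s71)* and 104, 86.6 and 92.4 CPM in wild type. The log2 fold changes were −0.56 for *mut-16* (adjusted p = 0.0654), −0.66 for the helicase *mut-14* (adjusted p = 0.0608) and −0.435 for *mut-15* (adjusted p = 0.159), and the groups overlapped for *mut-15*.

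*znfx-1*, the helicase of the Z granule that works with *wago-4*, was found in the tables under a sequence name by its gene ID. It had 137, 79.6 and 97.15 CPM in *blmp-1(s71)* and 214, 93.0 and 116 CPM in wild type. The groups overlapped, and the log2 fold change was −0.37 (SE 0.32, adjusted p = 0.367 in limma).

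Per length, *wago-1* was the most abundant of the 34 genes in both groups, at 189 ± 58.8 TPM in *blmp-1(s71)* and 296 ± 33.5 TPM in wild type (SD, n = 3 each). *csr-1* (111 ± 23.3 TPM in *blmp-1(s71)*, 158 ± 17.1 in wild type), *hrde-1* (101.2 ± 37.2 and 166 ± 26.2) and *prg-1* (98.0 ± 10.6 and 109.5 ± 12.4) followed, and within *blmp-1(s71)* these 3 did not differ beyond their spread. *rrf-1* was the least abundant in both groups, at 9.23 ± 0.543 TPM in *blmp-1(s71)* and 8.74 ± 1.36 TPM in wild type. *alg-3* ranked 9 of 34 in *blmp-1(s71)* and 30 in wild type, and *alg-4* ranked 10 in *blmp-1(s71)* and 32 in wild type. Deposited TPM carry no scaling between libraries, and tested on them *alg-3* and *alg-4* were still called higher, while 0 of the 34 genes were called lower by limma (12 at an unadjusted p under 0.05; edgeR and DESeq2 on reads called 9 and 15). In *blmp-1(s71)* the median of all genes stood 0.31 higher on the log2 scale in that unit, against 0.07 with TMM.

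Shares of the summed TPM of the 13 Argonautes do not depend on the scaling between libraries. This comparison was chosen after the values were seen. *alg-3* made up 4.43%, 7.55% and 3.32% of Argonaute TPM in *blmp-1(s71)* libraries 1 to 3 and 1.42%, 1.24% and 1.75% in wild-type libraries 1 to 3, and *alg-4* made up 4.97%, 7.0% and 3.05% in *blmp-1(s71)* and 1.27%, 1.20% and 1.55% in wild type. The ranges did not overlap in either gene, and mutant library 2 held the highest share. *ergo-1* held 5.51%, 4.21% and 6.25% in *blmp-1(s71)* and 9.76%, 6.41% and 6.32% in wild type, and *wago-4* held 4.86%, 3.20% and 5.16% in *blmp-1(s71)* and 8.82%, 5.50% and 5.58% in wild type. The shares of *prg-1* (12.2% in *blmp-1(s71)*, 10.1% in wild type) and *ppw-1* (4.58% and 3.94%) were higher in *blmp-1(s71)*, again with no overlap. A share also depends on the levels of the other Argonautes, and the levels of both genes did not rise (log2 fold changes −0.42 and −0.47, not called). For the 6 genes of the 13 without overlap the exact two-sided permutation test gave p = 0.1, the smallest that 3 against 3 libraries allow, before any adjustment. Ranges without overlap always give this value, so the test adds nothing to the lack of overlap. The other 7 Argonautes overlapped between the groups in their shares, *wago-1* among them with 22.9% ± 2.86 in *blmp-1(s71)* and 27.3% ± 1.58 in wild type.

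**Figure D3:**
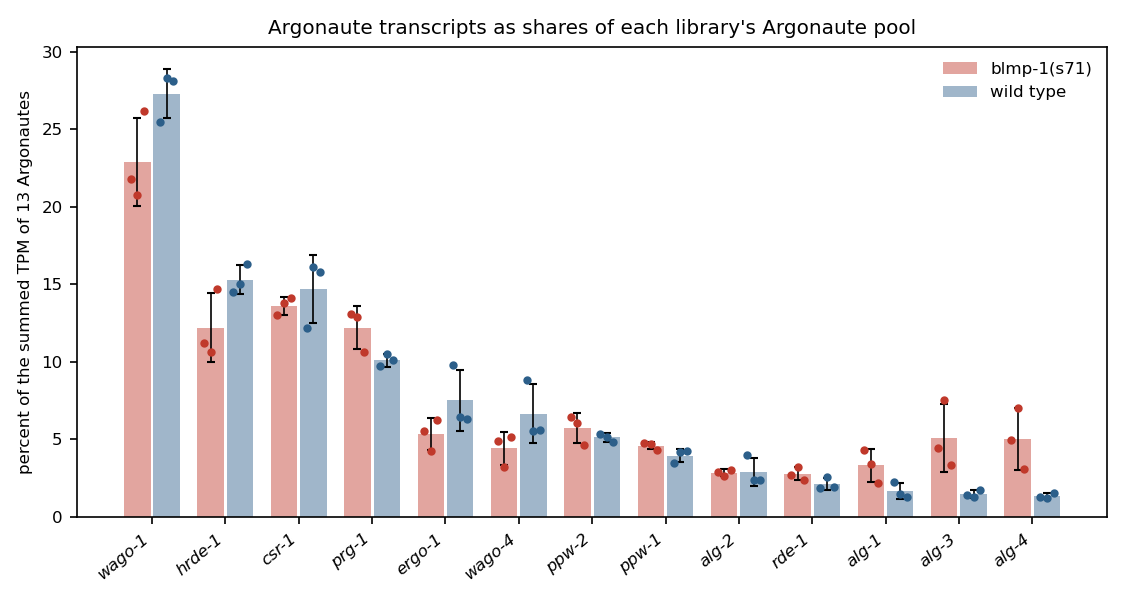
Share of the summed TPM of 13 Argonautes held by each, in percent, in the 3 *blmp-1(s71)* libraries (red) and the 3 wild-type libraries (blue), with points for libraries and bars for the mean and SD. *wago-1* holds the largest share in every library, and *alg-3* and *alg-4* range from 3.05% to 7.55% in *blmp-1(s71)* and from 1.20% to 1.75% in wild type.

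Ratios within a library were computed for 6 pairs, chosen after the values were seen. Exact permutation tests run on them could not give a p below 0.1, so the ratios are described without them. The ratios showed the same contrast of sperm and oocyte Argonautes. The TPM ratio of *alg-3* to *ergo-1* was 0.805, 1.79 and 0.531 in *blmp-1(s71)* libraries 1 to 3, against 0.145, 0.193 and 0.277 in wild-type libraries 1 to 3, a 4.62-fold difference of the geometric means (log2 difference 2.21, SE 0.58). The ratio of *alg-3* to *alg-4* was 0.892, 1.08 and 1.09 in *blmp-1(s71)* and 1.11, 1.03 and 1.13 in wild type, with overlap. The ratio of *ego-1* to *rrf-1* was 1.87, 1.43 and 1.78 in *blmp-1(s71)*, against 2.53, 2.46 and 2.94 in wild type (log2 difference −0.65, SE 0.14). The ratio of *alg-1* to *alg-2* was 1.49, 1.31 and 0.726 in *blmp-1(s71)* and 0.571, 0.617 and 0.535 in wild type (log2 difference 0.97, SE 0.32). Among the 6 ratios, *alg-3* to *alg-4* was the one whose groups overlapped.

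The mutant libraries also differed among themselves. Of the 31 genes with a negative fold change, 26 were closest to wild type in *blmp-1(s71)* library 3, 5 in library 1 and 0 in library 2. The lowest mutant value was in library 2 for 21 genes, in library 1 for 9 and in library 3 for 1. Averaged over all 34 genes, the mean log2 distance to the wild-type mean was −0.579, −0.750 and −0.313 in *blmp-1(s71)* libraries 1 to 3. It was 0.020, −0.090 and 0.070 in wild-type libraries 1 to 3. Every mutant library lay below every wild-type library in this average, and mutant library 3 lay nearest to them. Over the 31 genes, a mutant mean below wild type follows from how they were chosen. Their average was −0.72, −0.91 and −0.40 in *blmp-1(s71)* libraries 1 to 3, and 0.00, −0.06 and 0.06 in wild-type libraries 1 to 3.

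**Figure D4:**
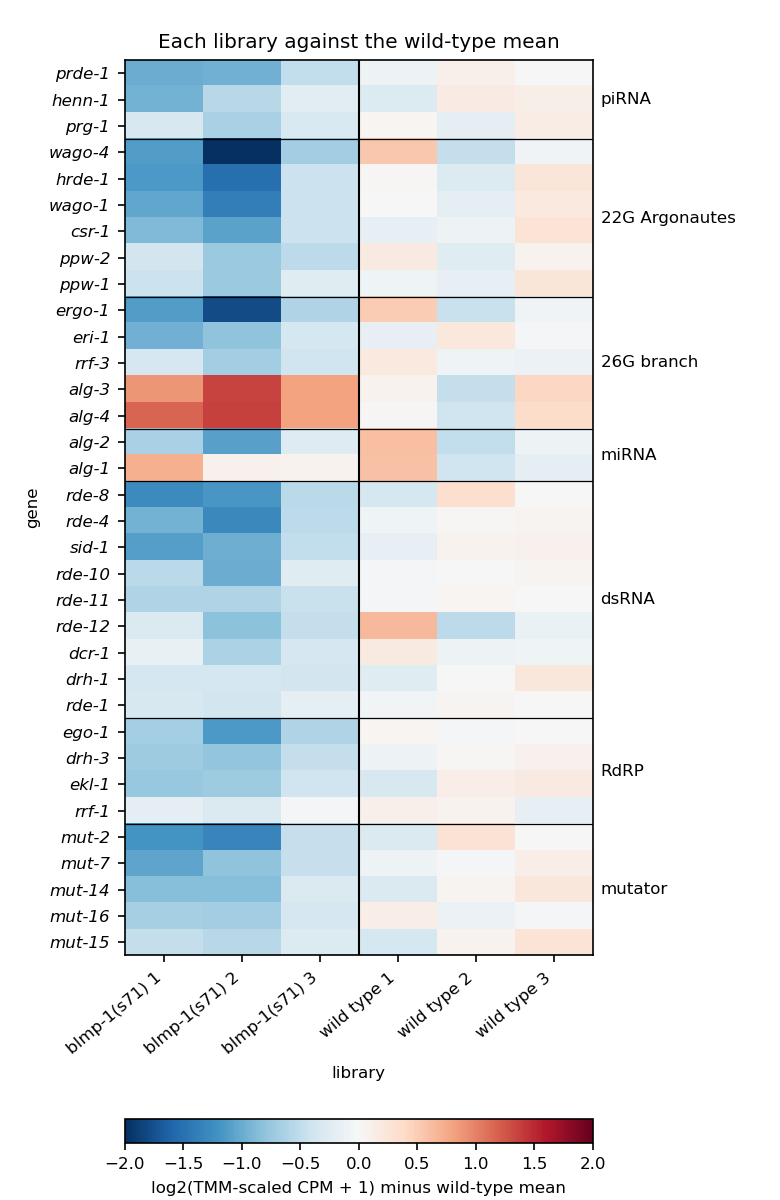
Heat map of the log2 difference of each gene in each library from its wild-type mean, with *blmp-1(s71)* libraries 1 to 3 left of wild-type libraries 1 to 3. Rows are the 34 genes by role. *blmp-1(s71)* library 2 is the lowest for 21 of the 31 genes with a negative fold change, and library 3 the closest to wild type for 26.

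Markers of the germline moved in the same libraries. In whole animals, fewer cells of a type and less RNA per cell cannot be told apart. Of 31 germline and meiosis genes, 0 rose and 19 fell in limma (61.3%, against 13.4% of all genes tested), with a median log2 fold change of −0.88. *spo-11*, the nuclease that cuts DNA for recombination, was among those that fell (log2 fold change −1.03). The summed level of the 31 genes was 1756, 1330.1 and 2466 CPM in *blmp-1(s71)* libraries 1 to 3 and 3826, 3181 and 3846 CPM in wild-type libraries 1 to 3. Of 24 oocyte and eggshell genes, 15 fell (62.5%), with a median of −1.41 and sums of 5651, 3917 and 11403 CPM in *blmp-1(s71)* against 19852, 12752 and 16966 CPM in wild type. Of 32 sperm genes tested, 9 rose (28.1%, against 8.84% of all genes tested) and 0 fell, with a median of 0.63. Their sums were 662, 839.9 and 599.5 CPM in *blmp-1(s71)* against 409, 401 and 544 CPM in wild type. Mutant library 3 was nearest to wild type, and library 2 farthest, in all 3 sums, the order also seen in the small RNA genes and in *alg-3* and *alg-4*. The groups did not overlap in any of the 3 sums. Without *blmp-1(s71)* library 3, 27 germline and 23 oocyte genes fell and 11 sperm genes rose, where 21.8% of all genes tested were called lower and 13.9% higher. Leaving out any other library left 0 germline, 0 oocyte and at most 1 sperm gene called by limma (at most 0.249% of all genes tested lower and 1.76% higher). The medians kept their sign, between −0.76 and −1.02, −1.04 and −1.87, and 0.47 and 0.71 in these fits. No gene of these 3 lists was at 0 reads in any library, and the part of these tissue shifts in the levels of the small RNA genes was not tested.

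**Figure D5:**
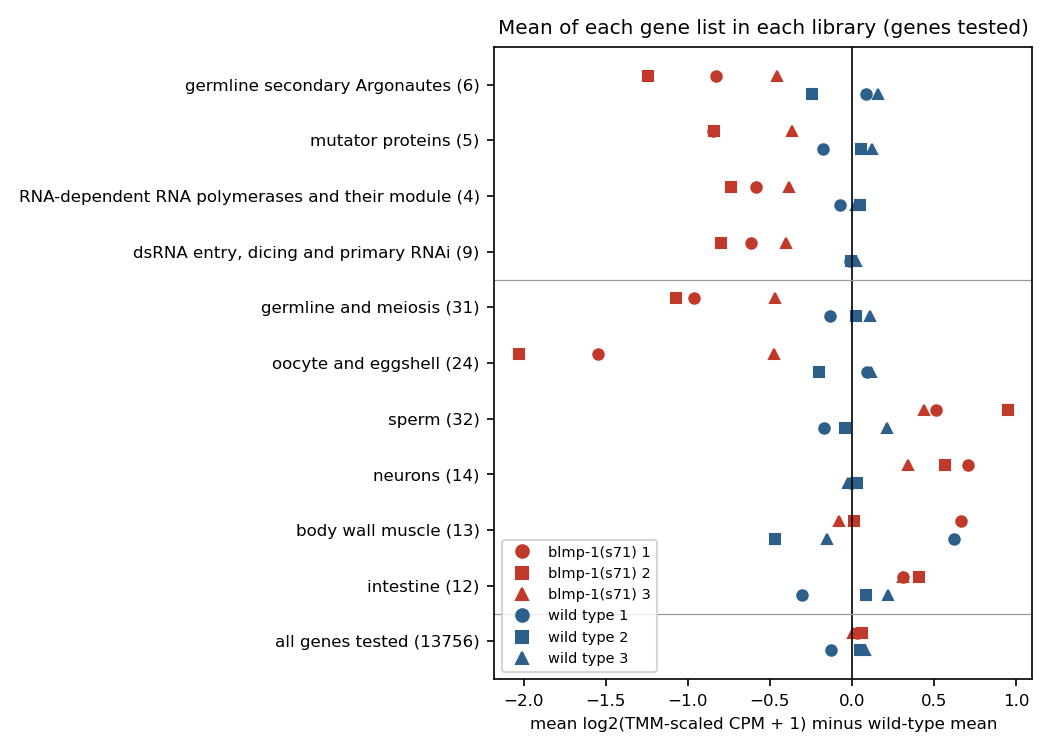
Mean log2(TMM-scaled CPM + 1) of each gene list in each library, minus the wild-type mean, with the number of genes in brackets. *blmp-1(s71)* libraries are drawn above wild-type libraries. Germline genes, oocyte genes and the 4 small RNA groups drawn lie left of 0 in all 3 mutant libraries. Sperm genes lie at 0.51, 0.95 and 0.44 in them, and neuronal genes at 0.71, 0.57 and 0.34. Of the small RNA groups not drawn, the piRNA factors were at −0.75, −0.72 and −0.34 in the mutant libraries. The 26G Argonautes with *rrf-3* and *eri-1* were at −0.07, −0.11 and 0.05, and the microRNA Argonautes at 0.03, −0.50 and −0.09.

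Somatic markers differed by tissue, and the neuronal genes rose about as much as the sperm genes. Of 13 body wall muscle genes 0 were called in limma (0 at an unadjusted p under 0.05), and their mean lay highest in library 1 of each group, at 0.66 in *blmp-1(s71)* and 0.62 in wild type above the wild-type mean on the log2 scale. Library 1 was also the highest wild-type library for some of the small RNA genes, among them *ergo-1*, *wago-4*, *rde-12*, *alg-1* and *alg-2*. Of 14 neuronal genes 3 rose (21.4%), with a median of 0.63, and of 12 intestinal genes 2 rose (16.7%), with a median of 0.15, against 8.84% of all genes tested. The neuronal median was about that of the sperm genes (0.63). Summed levels of the neuronal genes were 695, 647 and 589 CPM in *blmp-1(s71)* libraries 1 to 3, against 434, 458 and 480 CPM in wild type. These sums did not overlap, and mutant library 3 was nearest to wild type. Of the neuronal genes, 6 were called higher by limma without *blmp-1(s71)* library 3, as were 13.9% of all genes tested, and 0 with any other library left out. Of the intestinal genes 0 to 2 were called over the 6 fits. Over these fits the medians were 0.47 to 0.73 for neuronal and 0.07 to 0.35 for intestinal genes. The share of ribosomal RNA was 4.56%, 0.984% and 1.28% in *blmp-1(s71)* libraries 1 to 3 and 4.01%, 0.841% and 1.07% in wild-type libraries 1 to 3. Without both replicate-1 libraries, 0 of the 34 genes were called by limma in either direction (13 at an unadjusted p under 0.05), and the fold change was below 0 for the same number of genes, 31.

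Other genes of the same pathways were described from 7 further lists with 100 names, of which 89 were matched and 88 passed the filter. Of these, 1 rose, 45 fell (51.1%, against 13.4% of all genes tested) and 42 were not called, with a median log2 fold change of −0.78. Without *blmp-1(s71)* library 3, 61 fell, where 21.8% of all genes tested were called lower. Leaving out any other library left at most 1 called lower by limma, with medians between −0.65 and −0.94 over the 6 fits. The list for piRNA biogenesis had 12 of 18 genes lower and a median of −0.89. Among them were *tofu-5*, which acts in piRNA transcription (−1.02), and *erh-2*, a subunit of the complex that processes piRNA precursors (−1.19). *tost-1*, of the same list, stood at −1.17, and each of the 3 had a limma adjusted p of 0.0337. Of 17 genes of 22G amplification, mutator foci and the ERI complex 13 fell, with a median of −0.785. *simr-1*, a Tudor domain protein that passes piRNA targets to the mutator complex (−1.05), and *elli-1*, a germ granule protein (−1.19), were among them.

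P granule proteins had 9 of 15 lower, against 13.4% of all genes tested, and a median of −0.91. Among them were *deps-1* (−1.19), *meg-1* (−1.49) and the helicase *glh-3* (−0.96). Nuclear RNAi and chromatin factors had 5 of 10 lower and a median of −0.73, the heterochromatin protein *hpl-2* (−0.90) and the histone methyltransferase *met-2* (−0.79) among them. In microRNA processing and RNA editing 5 of 14 fell, with *pash-1* (−1.02) and *drsh-1* (−0.92), the subunits of the nuclear Microprocessor, among them. The 4 genes for uptake and spreading of double-stranded RNA had 0 called in limma (0 at an unadjusted p under 0.05) and a median of 0.04.

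The 10 other Argonautes tested had 1 rise and 1 fall (10% each), near the 8.84% and 13.4% of all genes tested. Without *blmp-1(s71)* library 3, limma called 1 higher and 4 lower, where 13.9% and 21.8% of all genes tested were called. Leaving out any other library left 0 called lower. In those fits 1 was called higher without wild-type library 1 and 0 otherwise. *wago-10* had 32.3, 31.4 and 16.1 CPM in *blmp-1(s71)* libraries 1 to 3, against 11.5, 5.63 and 8.63 CPM in wild-type libraries 1 to 3. It rose without overlap, by 1.51 on the log2 scale (SE 0.32, limma adjusted p = 0.0337). *alg-5*, a microRNA-binding Argonaute of the germline, fell by 0.95 on the log2 scale (SE 0.31, adjusted p = 0.0491). *prg-2*, a close copy of *prg-1* with which it may share reads, had a log2 fold change of −0.69 (adjusted p = 0.0714).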

How the data were processed

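Per the file headers, the authors deposited for each library 1 CPM and 1 TPM value per gene. The tools named per the submitters' processing notes are HISAT2 2.1.0, Trimmomatic 0.36, DESeq2 1.22.0 and featureCounts 1.6.3, with no role stated. Genome build, gene models, strand setting and handling of multi-mapping reads are not stated in the sources used here, so values of close copies (*prg-1* and *prg-2*, *alg-3* and *alg-4*, *mut-14* and *smut-1*) and of overlapping genes are uncertain. Dividing each library's CPM by the step of 1 read gave whole reads for 100% of nonzero values within 0.01 reads. A floor of 3 reads is 0.219 to 0.456 CPM in *blmp-1(s71)* and 0.197 to 0.571 CPM in wild type and covers counting error only.

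CPM were divided by TMM factors from the recovered reads (1.08 to 1.21 in *blmp-1(s71)*, 0.813 to 0.987 in wild type). Genes that reached 1 CPM in 3 or more libraries entered the fit on log2(CPM + 1) by limma 3.58.1 (R 4.3.3), with group as the only term, a mean-variance trend and robust moderation. Fold changes on this scale understate changes of low genes. Recovered reads were also fitted by DESeq2 1.42.0 and edgeR 4.0.16. Libraries of 1 group differed by more than sampling noise. Positions are from WBcel235. A spreadsheet had turned 11 symbols into dates.

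The genes, the lists and the rules were chosen with earlier results of these data known. Named genes are all 34, up to 4 called genes of each further pathway list and up to 2 of each tissue list by smallest adjusted p. *prg-2*, and the Argonaute shares and ratios, were chosen after their values were seen.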

Additional observations from a re-analysis of the deposited data

How the results depend on the processing

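The count of all genes called by limma, 3061 (1216 higher in *blmp-1(s71)* and 1845 lower), was 115 with no filter on low values, 124 without both replicate-1 libraries, and between 34 and 4746 when 1 library was left out. For the small RNA genes, limma called 2 higher and 14 lower. With no filter on low values and without both replicate-1 libraries, 0 were called higher and 0 lower (24 and 13 at an unadjusted p under 0.05). limma called 9 lower under upper-quartile scaling, 1 by library size alone and 0 on deposited TPM (12 at an unadjusted p under 0.05), and 2 higher under each. Of all genes, 14.8% were called higher and 9.54% lower under upper-quartile scaling. The shares were 16.6% and 1.02% by library size alone and 13.9% and 1.49% on TPM. edgeR called 2 higher and 9 lower (10% and 9.49% of all genes). DESeq2 called 2 higher and 15 lower (11.8% and 15.4% of all genes). Among all genes, library size alone called 2282 higher and 140 lower, and TPM called 2020 higher and 217 lower, with the median of all genes at 0.35 and 0.31 in place of 0.07.

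When 1 library was left out, limma called 0 to 2 small RNA genes higher and 0 to 20 lower. edgeR with libraries left out, added after seeing the data, called 0 to 2 higher and 0 to 20 lower, with 13 to 5366 genes called in all. The 20 lower came without *blmp-1(s71)* library 3, where 21.8% (limma) and 22.2% (edgeR) of all genes were called lower, and every other library left out gave 0 lower in both tools, with 14 to 19 (limma) and 9 to 21 (edgeR) at an unadjusted p under 0.05.

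Same-numbered libraries had correlations of their deviations of 0.355, 0.44 and −0.09 for numbers 1 to 3, against −0.45 to 0.19 for different-numbered libraries. Libraries numbered 1 and 2 may therefore be paired across the groups, while those numbered 3 gave no sign of it. The labels state no pairing, and the main fit holds no replicate term. With a replicate block, limma called 5877 genes in all and edgeR 5340. Of the small RNA genes 26 were then called lower by limma (25.5% of all genes) and 21 by edgeR (22.7% of all genes), with 2 higher in each.

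The sign turned for *rde-1* with library size alone (0.041) and for *rrf-1* with library size alone (0.148), with TPM (0.079) and in edgeR without wild-type library 1 (0.016). With 1 library left out, *rrf-1* ranged from −0.256 to 0.016. The other fold changes of the 34 genes kept their sign under all alternatives run. The causes of these shifts were not tested. With 3 libraries a group, adjusted p-values just under 0.05 depend on the spread of single libraries.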
